A study of Cavia porcellus with 12 samples.

Results

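The miR-199 and miR-214 family was followed through small RNA sequencing of ventricular cardiomyocytes of the guinea pig. It was taken as every listed sequence whose name ends in the human precursor hsa-mir-199a-1, hsa-mir-199a-2, hsa-mir-199b or hsa-mir-214, which are 4 of the 289 human precursors in the tables. These precursors held 81 of 2449 listed entries, an entry being 1 sequence under 1 precursor, and the 81 entries spelled 44 different sequences. The cells came from adult Hartley guinea pigs, whose hearts were perfused and digested with enzymes, and no sorting step is described. Cells were kept with 10 µM DOX (doxorubicin, a chemotherapy drug of the anthracycline class) or with DMSO, its vehicle. The exposure lasted 1 h or 22 h, and each of the groups DMSO 1 h, DOX 1 h, DMSO 22 h and DOX 22 h has 3 libraries in the labels, C1 to C3, which makes 12 libraries in 4 groups. The same isolation procedure is described for all groups, which differ in agent and time in the labels. The labels do not say whether C1 to C3 came from separate animals, or whether the groups shared a preparation.

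A miRNA precursor is a hairpin that is cut into a 5p strand and a 3p strand, and each strand can pair with messenger RNAs through its seed near the 5′ end. In mammals, mir-199a-2 and mir-214 are made together from DNM3OS, a long RNA opposite the dynamin gene DNM3, whereas mir-199a-1 lies opposite DNM2 and mir-199b opposite DNM1. The family is known as a mark of fibroblasts and other mesenchymal cells. In cardiomyocytes, miR-199a is known for its link to hypoxia, through HIF-1α and sirtuin 1, and miR-214 for its link to calcium handling.

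The sequences below are those of the deposited tables. The 21-base forms of miR-199a-5p and miR-199b-5p are shown because they are how these miRNAs were told apart, and the capitals mark the bases that differ, C8T and C15T, counted from 1 at the 5′ end of the form with the miR-199a base first.
miR-199a-5p: cagtgttCagactaCctgttc
miR-199b-5p: cagtgttTagactaTctgttc
The first 7 bases of these forms were shared. In both 5p miRNAs the next most abundant form lacked the last base, and these 20-base forms are shown because their share differed between libraries for miR-199a-5p.
miR-199a-5p, 20 bases: cagtgttCagactaCctgtt
miR-199b-5p, 20 bases: cagtgttTagactaTctgtt

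The 3p strand of all 3 mir-199 precursors was the same sequence and is called miR-199-3p here. It was listed with 3 starts, numbered 1 to 3 from the 5′ end, and with ends that differed in a few bases. The 8 forms with the largest means in the table of DOX 22 h and DOX 1 h are shown, with capitals for the bases at the 3′ end that vary between forms.
start 2, 19 bases: agtagtctgcacattggTT
start 2, 20 bases: agtagtctgcacattggTTA
start 1, 20 bases: cagtagtctgcacattggTT
start 2, 18 bases: agtagtctgcacattggT
start 2, 21 bases, thymine end: agtagtctgcacattggTTAT
start 2, 21 bases, adenine end: agtagtctgcacattggTTAA
start 3, 18 bases: gtagtctgcacattggTT
start 2, 20 bases, thymine end: agtagtctgcacattggTTT

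For miR-214, the 4 main forms of the 3p strand are shown because they differ in their start, and the form of the 5p strand because most of its reads were of that form. Capitals again mark the variable 3′ end.
miR-214-3p, start 2, 20 bases: agcaggcacagacaggCAGT
miR-214-3p, start 2, 19 bases: agcaggcacagacaggCAG
miR-214-3p, start 1, 21 bases: cagcaggcacagacaggCAGT
miR-214-3p, start 1, 20 bases: cagcaggcacagacaggCAG
miR-214-5p, start 1, 20 bases: cctgtctacacttgctgtgC
All member entries were 16 to 21 bases long, within the 12 to 21 bases of all entries. As background, the annotated human mature strands begin upstream of these starts, so the seed cannot be read as the opening bases of an entry. Whether bases were removed before counting was not tested. The tables list reads against human precursors, so a precursor name here is that of the human sequence the reads were assigned to.

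The tables give a mean over both groups of a comparison and no value per library. In the tables of DOX 22 h with DMSO 22 h and of DOX 22 h with DOX 1 h, each mean was a whole-number combination of the reads of 1 library on each side, so the reads of 3 libraries could be recovered, each the C1 library of its group. Reads were recovered in all 3 libraries for 62 member entries and in DOX 22 h and DOX 1 h for 69. Recovered entries held 440362 reads in DMSO 22 h, 474736 in DOX 22 h and 623625 in DOX 1 h, of which 12764, 14485 and 18705 were of the family. These sums leave out entries that had more than 1 solution and are not the depth of the libraries, which is unknown. The means of the table of DOX and DMSO at 1 h could not be resolved, so no ratio of DOX to DMSO could be formed at 1 h. With 1 library a side there is no replicate check, no difference was tested, and every interval in the text is an exact 95% binomial interval that covers counting error only. Reads of DMSO 22 h and DOX 1 h were scaled to the DOX 22 h library by the size factors contained in the means, 1.12 and 0.778.

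The family was a small part of the small RNA. It made up 0.389% of the sum of means in the table of DOX and DMSO at 1 h, 0.285% at 22 h and 0.276% in the table of DOX 22 h and DOX 1 h. The cardiomyocyte list mir-1, mir-133a, mir-208 and mir-499a was detected for all its 7 precursors and held 37.1% of the last sum. In the means behind that sum, each precursor of mir-1, mir-133a and mir-499a stood at 199186 or more, so these cardiomyocyte markers were abundant. The mean was 3216 for mir-208a and 7138 for mir-208b. That of the family was 16551 over its 4 precursors, with 5779 for mir-199a-1, 5681 for mir-199a-2, 4744 for mir-199b and 347 for mir-214. Thus mir-208b stood above each single member and mir-208a above mir-214 alone. Smooth muscle and pericyte mir-143 and mir-145 held 19.8%, endothelial mir-126 3.24%, the red cell list of 4 precursors 0.0399% and the white cell list of 3 precursors 0.00707%. Less RNA per cell and fewer cells of a type cannot be told apart in these samples.

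Within the family, miR-199-3p was the most abundant strand, followed by miR-199a-5p, miR-199b-5p, miR-214-3p and miR-214-5p, in this order in each of the 3 libraries. miR-199-3p, summed over its 3 precursors, had 8921 reads in DMSO 22 h, 9826 in DOX 22 h and 12680 in DOX 1 h. miR-199a-5p, from hsa-mir-199a-1 and hsa-mir-199a-2, had 2803, 3460 and 4520 reads. miR-199b-5p, from hsa-mir-199b alone, had 848, 943 and 1158 reads. These counts are shown per library and scaled to DOX 22 h in the plot of reads per arm, where the intervals of neighbours in the order do not overlap within any library.

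**Figure D1:**
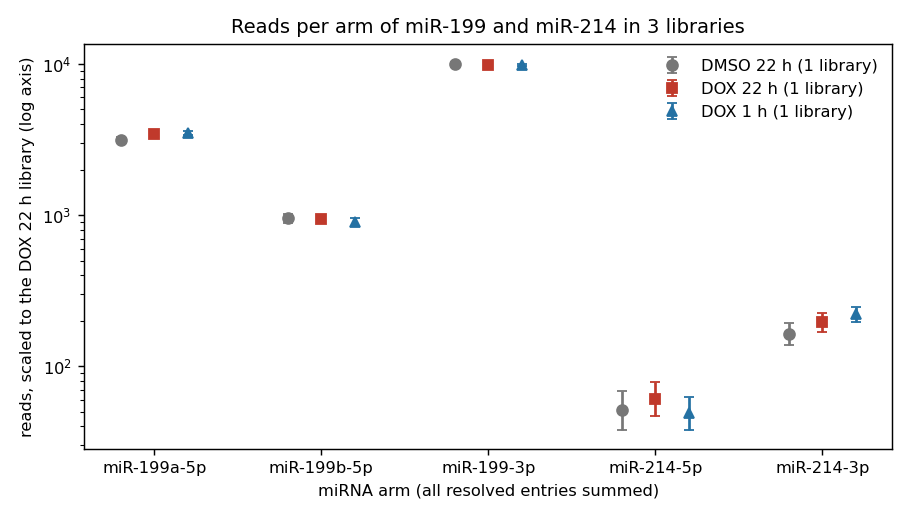
Reads of each arm, scaled to the DOX 22 h library and on a log axis, in the DMSO 22 h, DOX 22 h and DOX 1 h libraries, with exact 95% Poisson intervals as bars (counting error only). The 3 libraries lie close together for every arm, from about 9826 scaled reads of miR-199-3p down to 61 of miR-214-5p in DOX 22 h.

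The products of hsa-mir-214 were rare. miR-214-3p had 146 reads in DMSO 22 h, 195 in DOX 22 h and 284 in DOX 1 h, and miR-214-5p had 46, 61 and 63. Summed over its precursors, miR-199-3p had 61.1 reads for each read of miR-214-3p in DMSO 22 h. This ratio was 50.4 in DOX 22 h and 44.6 in DOX 1 h. Of those precursors, only mir-199a-2 shares a primary transcript with mir-214. Identical 3p reads cannot be assigned to a single precursor, so the ratio within that transcript is unknown. Of the mean of miR-214-3p in the table of DOX 22 h and DOX 1 h, 15.2% stood in entries with more than 1 solution, and of that of miR-214-5p 9.59%. Those reads are not in the sums above.

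The 3p strand outnumbered the 5p strand for both families of precursors. For miR-199, with miR-199a-5p and miR-199b-5p summed, there were 2.44 reads of the 3p strand for each 5p read in DMSO 22 h (2.35 to 2.54), 2.23 in DOX 22 h (2.15 to 2.31) and 2.23 in DOX 1 h (2.16 to 2.30). For miR-214 the ratio was 3.17 (2.26 to 4.52), 3.20 (2.39 to 4.33) and 4.51 (3.42 to 6.02). In the means of the table at 1 h, over DOX and DMSO, the ratios were 2.50 and 4.84, with no error. These means include 3p entries without reads in all 3 libraries, so they cover more entries than the ratios above. The intervals of miR-214 overlap across the 3 libraries, and those of miR-199 overlap between DOX 22 h and DOX 1 h but not between DMSO 22 h and either DOX library.

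DOX against DMSO at 22 h was compared to see what the longer exposure did to these miRNAs. The abundant strand hardly differed between the libraries. The log2 ratio of DOX 22 h to DMSO 22 h was -0.030 for miR-199-3p (-0.071 to 0.012) and -0.016 for miR-199b-5p (-0.15 to 0.12). miR-199a-5p was 1.10-fold higher in the DOX library, a log2 ratio of 0.13 (0.062 to 0.21). For miR-214-3p the log2 ratio was 0.25 (-0.069 to 0.57) and for miR-214-5p 0.23 (-0.34 to 0.82), so that at this depth a difference was not detectable for either. Over the 62 entries with reads, 28 ratios were above 0 and 34 below, with a median log2 ratio of -0.019, beside 0.0020 over all 1213 entries of human precursors.

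An entry was counted as past the fold limit when its log2 ratio was at least 0.8 in size and it had at least 20 reads in both libraries together. At 22 h this held for 5 of the 62 member entries, all higher in DOX, whereas 17.7% of all entries, 127 higher and 88 lower, were past the limit. The family's share was below that background. Of the 62 entries, 45 were of miR-199-3p, whose sequences recur under different precursors, so they are not separate members. The background, here and in the other comparison, leaves out entries with several solutions and was not matched for reads. The highest of the 5 was the start 3 form of miR-199-3p of 19 bases with a thymine end, as listed under mir-199a-1, with 7 reads in DMSO 22 h and 24 in DOX 22 h. The start 3 form of 17 bases under mir-199a-1 had 6 and 18 reads, and the start 3 form of 20 bases with a thymine end under mir-199b had 10 and 22.

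These 3 entries share their sequence with entries under other precursors, which gave other ratios. For the 19-base sequence the log2 ratio was 1.54 under mir-199a-1 and 0.39 under the precursor where it was lowest. For the 17-base sequence the listings gave 1.34 and 0.79, and for the 20-base sequence the highest was 0.93 and the lowest -0.013. Reads of the start 2 form of 19 bases were split nearly evenly, with 1031 to 1083 per precursor in DMSO 22 h and 1193 to 1213 in DOX 22 h. The split was less even for rarer sequences, such as the 19-base sequence above, with 15 to 24 reads per precursor in DOX 22 h. The start 1 form of 21 bases ending in TTA was listed under mir-199a-1 alone, with 48 reads in DMSO 22 h and 57 in DOX 22 h. Which precursor the reads of a shared sequence came from is therefore uncertain. Summed over precursors, the 17-base sequence had 15 reads in DMSO 22 h and 36 in DOX 22 h, a log2 ratio of 1.07 (0.19 to 2.07). The 19-base sequence had 28 and 56 reads, a log2 ratio of 0.82 (0.15 to 1.54), and the 20-base sequence 40 and 63, a log2 ratio of 0.48 (-0.11 to 1.10). The first and second of these sums were past the limit too.

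The remaining 2 entries past the limit were the 20-base and 19-base forms of miR-214-3p with start 2. The 20-base form had 35 reads in DMSO 22 h, 77 in DOX 22 h and 108 in DOX 1 h, a log2 ratio at 22 h of 0.96 (0.37 to 1.59). The 19-base form had 18, 37 and 50 reads, a log2 ratio of 0.85 (0.021 to 1.77). A start 2 form of 16 bases had 10, 10 and 19 reads, a log2 ratio of -0.17 (-1.59 to 1.25). Of the start 1 forms, that of 21 bases had 44, 31 and 41 reads and that of 20 bases 29, 23 and 38, with log2 ratios at 22 h of -0.67 (-1.39 to 0.021) and -0.50 (-1.36 to 0.34). The start 1 form of 19 bases had 10, 17 and 28 reads, a log2 ratio of 0.57 (-0.61 to 1.89). The intervals of these 4 forms hold 0.

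**Figure D2:**
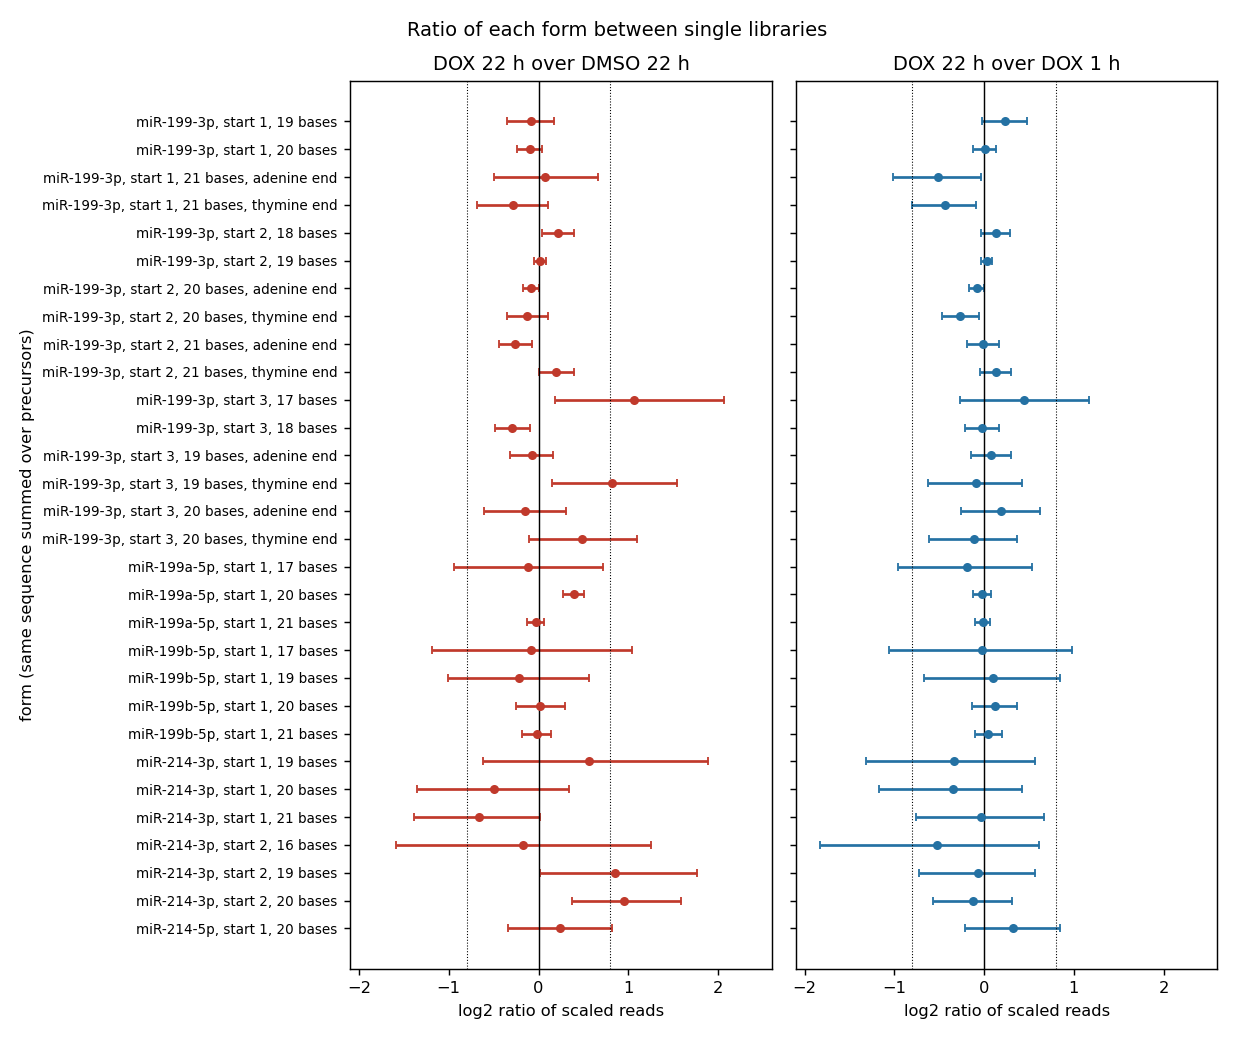
Log2 ratio of scaled reads for each form with reads in all 3 libraries, with exact 95% binomial intervals (counting error only), for DOX 22 h over DMSO 22 h and DOX 22 h over DOX 1 h, 1 library a side. Dotted lines mark a log2 ratio of 0.8 in either direction. The abundant forms lie near 0 in both panels, and at 22 h the 20-base form of miR-199a-5p stands at 0.39. The forms past the dotted line at 22 h are those of miR-214-3p with start 2 and 19 or 20 bases, at 0.85 and 0.96, and those of miR-199-3p with start 3 and 17 bases, at 1.07, or 19 bases and a thymine end, at 0.82.

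DOX at 22 h was compared with DOX at 1 h, which differ in time with the drug and in time in culture alike. Reads of DMSO 1 h could not be recovered, so the effects of these times cannot be told apart in any ratio of DOX 22 h to DOX 1 h. The comparison uses the same DOX 22 h library as the one above, so the 2 are not independent. The counting interval of each arm held 0. The log2 ratio of DOX 22 h to DOX 1 h was -0.0067 for miR-199-3p (-0.045 to 0.031), -0.023 for miR-199a-5p (-0.087 to 0.042) and 0.052 for miR-199b-5p (-0.074 to 0.18). It was 0.32 for miR-214-5p (-0.22 to 0.85) and -0.18 for miR-214-3p (-0.45 to 0.088). With the entries that had several solutions set to the fewest or the most DOX 22 h reads, it ranged from 0.010 to 0.34 for miR-214-5p and from -0.44 to 0.14 for miR-214-3p, so the direction of miR-214-3p was not settled. Of the 62 member entries, 0 were past the limit, where 11.8% of all 1187 entries were, and their median log2 ratio was -0.011, beside 0.044 over all entries.

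The forms within an arm were then compared inside each library, where the scaling between libraries plays no part. The pairs of forms were chosen after the reads had been seen and are given as descriptions. For miR-199a-5p, the 20-base form had 996 reads and the 21-base form 1781 in DMSO 22 h, against 1472 and 1961 in DOX 22 h and 1929 and 2551 in DOX 1 h. The 20-base form thus stood at 0.559 reads for each read of the 21-base form in DMSO 22 h (0.517 to 0.605), 0.751 in DOX 22 h (0.701 to 0.804) and 0.756 in DOX 1 h (0.712 to 0.803). The DMSO library was low and the DOX libraries were alike. The ratio was 0.566, 0.715 and 0.740 under mir-199a-1 and 0.553, 0.787 and 0.773 under mir-199a-2. Over DOX and DMSO at 1 h the ratio of means was 0.660.

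The same pair of lengths in miR-199b-5p did not show this. It had 219 reads of 20 bases and 584 of 21 bases in DMSO 22 h, 250 and 648 in DOX 22 h, and 296 and 806 in DOX 1 h. The ratios were 0.375 (0.320 to 0.439), 0.386 (0.332 to 0.447) and 0.367 (0.320 to 0.420), and the ratio of means at 1 h was 0.376.

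For miR-214-3p, the start moved with the libraries. Forms with start 2 had 63 reads in DMSO 22 h, 124 in DOX 22 h and 177 in DOX 1 h, and forms with start 1 had 83, 71 and 107. Start 2 thus held 43.2% of the reads in DMSO 22 h (35.0 to 51.6), 63.6% in DOX 22 h (56.4 to 70.3) and 62.3% in DOX 1 h (56.4 to 68.0). It held 59.8% of the mean of the same entries at 1 h. The DMSO library was again the one that stood apart.

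How often such shifts occur was read from the 2 most abundant entries of each of 175 precursor arms. Between DOX 22 h and DMSO 22 h, the ratio of the pair moved at least as far as that of the miR-199a-5p lengths in 32.0% of these arms, and as far as that of the miR-214-3p starts in 4.57%, which is 8 arms. The pairs in that background are single entries fixed by abundance, and those of the family are summed and were chosen after the reads had been seen. The miR-214-3p pair also rests on 146 reads in DMSO 22 h. The shares are therefore a guide only. Between DOX 22 h and DOX 1 h, at least 70.3% of the arms moved as far as either pair. Over the 175 arms, the median size of the log2 change was 0.27 between DOX 22 h and DMSO 22 h and 0.15 between DOX 22 h and DOX 1 h. The DMSO 22 h library thus stood farther from DOX 22 h than DOX 1 h did over these arms, and not in the family alone.

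**Figure D3:**
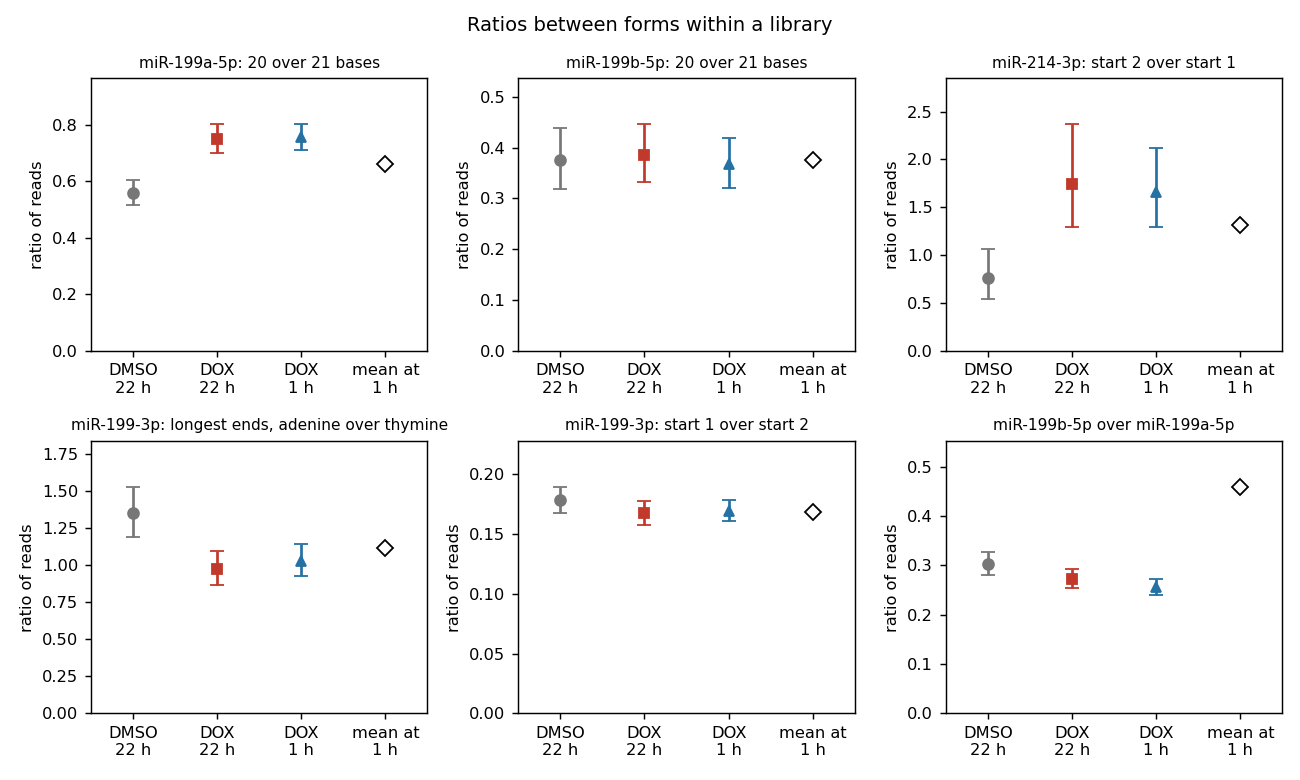
Ratio of reads between forms or miRNAs within the DMSO 22 h, DOX 22 h and DOX 1 h libraries, with exact 95% binomial intervals (counting error only), and the ratio of the authors' means over DOX and DMSO at 1 h as an open diamond without error. The diamonds cover all entries with a mean at 1 h, which for miR-214-3p include entries that the library points leave out. The DMSO 22 h library lies apart for miR-199a-5p, at 0.559, for miR-214-3p, at 0.759, and for the longest ends of miR-199-3p, at 1.35, whereas the lengths of miR-199b-5p give 0.367 to 0.386 in the 3 libraries.

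The starts of miR-199-3p were stable. Start 2 held 76.5% of the reads in DMSO 22 h, 77.5% in DOX 22 h and 77.6% in DOX 1 h, and 78.1% of the mean at 1 h. Start 1 held 13.7%, 13.0% and 13.1%, and start 3 held 9.88%, 9.55% and 9.31%. In each case the intervals of the 3 libraries overlap. Start 1 forms reached 21 bases, the longest of any entry, with the end TTA. The longer ends TTAA and TTAT were listed with starts 2 and 3 only, so the shares of starts and ends hold within this limit of length.

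The main 3′ ends of miR-199-3p held like shares in the 3 libraries, and some of the rarer ends did not. Forms ending in TT held 49.6% of its reads in DMSO 22 h, 49.5% in DOX 22 h and 48.6% in DOX 1 h, and those ending in TTA 25.9%, 25.1% and 26.4%. Among the longer forms, those ending in TTAA had 584, 555 and 705 reads and those ending in TTAT 433, 570 and 685, a ratio of 1.35 in DMSO 22 h (1.19 to 1.53), 0.974 in DOX 22 h (0.865 to 1.10) and 1.03 in DOX 1 h (0.925 to 1.14). Over the 175 arms, 30.3% of pairs moved at least as far as this between the libraries of 22 h. Forms ending in TTT held 5.18% (4.73 to 5.66), 4.997% (4.57 to 5.45) and 6.07% (5.66 to 6.50), and the intervals of DOX 22 h and DOX 1 h do not overlap.

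**Figure D4:**
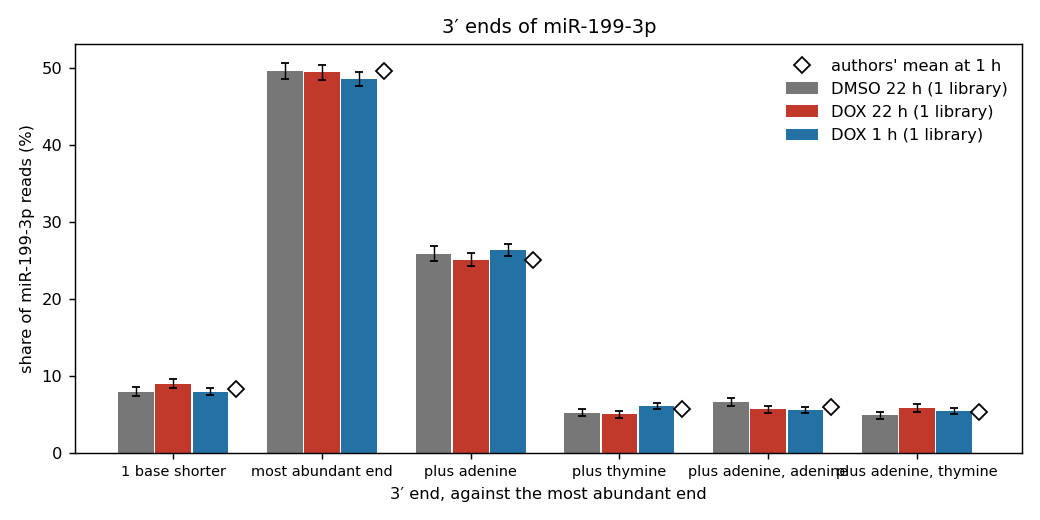
Share of miR-199-3p reads by 3′ end, in percent, in the DMSO 22 h, DOX 22 h and DOX 1 h libraries, with exact 95% binomial intervals (counting error only) and the share of the authors' mean at 1 h as an open diamond. Ends are named by the bases lost from or added to the most abundant end, which holds 48.6% to 49.6% in the 3 libraries.

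At 1 h only the authors' means over DOX and DMSO were available. They were 16067 for miR-199-3p, 4395 for miR-199a-5p, 2022 for miR-199b-5p, 312 for miR-214-3p and 64.4 for miR-214-5p, in the same order as in the libraries. Some ratios of these means lay outside intervals of the libraries. That of 0.660 for the lengths of miR-199a-5p lay outside all 3. That of 4.84 for the strands of miR-214 also counts 3p entries that the library ratios leave out, so it cannot be set against their intervals. miR-199b-5p stood at 0.460 of miR-199a-5p in these means, but at 0.303 in DMSO 22 h (0.280 to 0.327), 0.273 in DOX 22 h (0.253 to 0.293) and 0.256 in DOX 1 h (0.240 to 0.273). Which libraries the means at 1 h cover could not be read from the table.

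The markers of other cells did not all stay level beside the family. The family as a whole had a log2 ratio of 0.013 at 22 h (-0.021 to 0.048) and -0.0081 between DOX 22 h and DOX 1 h (-0.039 to 0.023). Endothelial mir-126 gave -0.020 and 0.075, and smooth muscle mir-143 and mir-145 gave -0.29 and -0.031, but reads were recovered for only 13.6% and 1.17% of their means at 22 h, so these ratios cover rare forms. The recovered reads of mir-143 were 8340 in DMSO 22 h and 5773 in DOX 22 h and those of mir-145 were 3858 and 5451, so the members of that list moved in opposite directions. The red cell list, recovered whole at 22 h, gave -0.37 (-0.46 to -0.27) and -0.52 (-0.61 to -0.44). At 22 h its fall lay in mir-486-1, with 917 reads in DMSO 22 h and 761 in DOX 22 h, and mir-486-2, with 954 and 829, whereas mir-451a had 91 and 107 and mir-144 9 and 20. From DOX 1 h to DOX 22 h, among entries read in every library, mir-486-1 went from 1491 to 761, mir-486-2 from 1486 to 829 and mir-451a from 175 to 107. mir-144 rose from 7 to 20. In the means of these 2 groups, mir-486-1 and mir-486-2 held 1097 and 1137 of the 2397 of the list, so its ratios are largely theirs. The white cell list gave -0.17 (-0.40 to 0.066) and 0.23 (0.0071 to 0.46), the second with 78.1% of its mean recovered. Its members differed in direction between DOX 1 h and DOX 22 h. Among entries read in every library, mir-142 had 247 reads in DOX 1 h and 271 in DOX 22 h. For mir-223 these were 27 and 17, and for mir-150 37 and 13. The part of other cells in the ratios of the family was not tested.

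As a reference for hypoxia, mir-210, a target of HIF-1α, was set beside the family. It had 299 reads in DMSO 22 h and 544 in DOX 22 h, a log2 ratio of 0.69 (0.49 to 0.90), and 0.62 (0.44 to 0.80) between DOX 22 h and DOX 1 h. Neither interval of mir-210 overlaps that of any strand of miR-199. At 22 h that of mir-210 overlaps those of both strands of miR-214, and between DOX 22 h and DOX 1 h that of miR-214-5p.

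The arms most like miR-199-3p in its 2 log2 ratios were sought among 258 precursor arms with at least 100 reads, by Euclidean distance. They were the second arms of mir-126, mir-132, mir-23a, mir-148b and mir-25, at distances of 0.0228 to 0.0690. The mir-126 arm had log2 ratios of -0.028 and 0.017, and the mir-25 arm, the farthest of the 5, -0.099 and -0.012. Both ratios of miR-199-3p were near 0, so any arm that hardly differed between the libraries lay near it. For mir-126, reads were recovered for only 13.6% of the mean at 22 h.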

How the data were processed

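The groups were taken from the sample labels. Per the submitters' processing notes and labels, the libraries were made with the TruSeq Small RNA kit, sequenced on a HiSeq instrument and processed with BaseSpace Small RNA version 1.0 against hg19. The authors deposited 3 tables, 1 per comparison, and their mean is a signal, reads divided by size factors and averaged over the libraries compared. The authors' remaining columns hold their own comparison (fold change, standard error, p-value, adjusted p-value, a status and a value for each group) and were not used. In the tables of DOX and DMSO, means were written without their decimal mark. The intact table of DOX 22 h and DOX 1 h supplied the power of 10 of each entry, except for 5 of 73 member entries at 1 h.

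The 2 tables that include DOX 22 h were solved together for whole reads, within 0.0001 of the common step. The shared DOX 22 h library fitted in 1052 of 1052 entries with 1 solution in the 22 h table, and 132 fitted the next best assignment. Predicted miRNAs in these tables carry the C1 names of both groups in 12 of 12 and 29 of 29 rows, which set the replicate. At 1 h, 2 steps accounted for 0.333% of the 300 lowest means. A further 7 member entries had several solutions and were left out of sums, and the 6 rows that carry a mature name of the family were listed at 0. The solver was tested on simulated data. It found the steps and the shared library in 3 of 6 simulated runs. In the others it stopped and gave no reads. In the solved runs, 2948 of 4275 entries had 1 solution, and all 2948 were right. The simulated data had 1 library a side by design, so they could not test whether the authors' means do.

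A log2 ratio is that of scaled reads with 0.5 reads added. Arms were starts more than 15 bases apart, and equal sequences were summed over precursors. The members, lists and markers were chosen with earlier results of these data known. Every member precursor and arm, the 3 entries with the largest mean in each arm and every entry past the limit were to be named, with the 5 arms most like the most abundant one. The alternatives were other scalings, limits, minimum reads and pseudocounts, and the most abundant form alone or left out. Python 3.11.15, numpy 2.4.6, pandas 2.3.3, scipy 1.17.1 and matplotlib 3.10.9 were used.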

Additional observations from a re-analysis of the deposited data

How the results depend on the processing

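Under other settings, 70 values moved by less than their counting interval or, for counts, by less than 1.5 times. The other 16 were these. At 22 h, the log2 ratio of miR-199a-5p turned to -0.030 for its most abundant form alone and was 0.38 without that form. That of miR-199-3p was 0.031 when scaled by the total of recovered reads and 0.014 for its most abundant form. That of miR-214-3p was 0.96 for its most abundant form and -0.081 without it. Between DOX 22 h and DOX 1 h, miR-199-3p gave -0.046 when scaled by the median ratio. miR-214-3p gave 0.14 when entries with several solutions were set to the most DOX 22 h reads, a setting added after the data were seen, because every solution had the same residual. The 5 member entries past the limit at 22 h became 2 at a log2 limit of 1 and 1 at a minimum of 100 reads, and the 0 between DOX 22 h and DOX 1 h became 6 with no minimum. The 3p reads per 5p read of miR-199 were 1.84 from the most abundant forms, 2.50 from the means at 1 h and 2.33 from those at 22 h, and those of miR-214 were 1.26 and 4.84 from the first and second of these. No paired analysis was possible because the tables give no value per replicate, and for the same reason no replicate could be left out. With 1 library a side, the spread between replicates is unknown.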
